A study of Caenorhabditis elegans with 10 samples.

Results

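The 10 genes that encode the troponins of Caenorhabditis elegans were followed through sexual maturation in both sexes. They were chosen by name, as the 4 troponin I genes (tni-1, unc-27, tni-3 and tni-4), the 4 troponin T genes (mup-2, tnt-2, tnt-3 and tnt-4) and the 2 troponin C genes (pat-10 and tnc-2). Each was found by its sequence name among the 46589 genes listed in the count tables, and all 10 passed the filter on low counts that left 15924 genes for testing. Whole-animal RNA came from hermaphrodites and males that all carried a him-5 mutation, which raises the frequency of males through loss of the X chromosome. Each sex gave 1 library in each of 5 time windows, counted in hours from hatching. Late L3 larvae were taken between 30 and 34 h, early L4 larvae between 36 and 40 h, late L4 larvae between 42 and 46 h, and young adults between 48 and 52 h (the first adult window) and between 54 and 58 h (the second adult window). The labels name no further treatment and no unmutated control, and do not say how many animals or cultures stood behind a library.

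Troponin is the calcium switch of striated muscle. Troponin C binds calcium, troponin I holds back the interaction of actin with myosin until calcium arrives, and troponin T ties the complex to tropomyosin on the thin filament. In this animal the pharynx, the pump that takes in food, has its own troponins (tni-4, tnt-4 and tnc-2), while the remaining genes are known mainly from body wall muscle, which moves the animal. Loss of pat-10 paralyses the embryo, and mutants of unc-27 move poorly.

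Reads assigned to genes ranged from 8189325 to 27907544 per library. Unaligned reads made up 25.38% of the male library from the second adult window and 3.31% to 13.49% of the other 9. The male transcription factor gene mab-3 stood at 17.2 to 34.5 CPM (read counts scaled to the TMM-adjusted total of the tested genes) in males and 0.114 to 2.09 CPM in hermaphrodites. No sex and window was replicated, so each test takes its error from the spread across windows. Whether the libraries are of separate cultures is not stated, so the p-values refer to the spread among these libraries alone, which may be technical. Log2 ratios are male over hermaphrodite. Under TMM the all-gene median of the log2 ratio was 0.21 over the course and 0.34 in young adults, against 0.32 and 0.63 with library size as the only scaling, and changes of single genes stand against that shift.

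In CPM per kb of exon, averaged over the 10 libraries, pat-10 was highest at 1036 ± 393 (SD, n = 10 libraries), followed by mup-2 at 314 ± 103, unc-27 at 200.0 ± 35.7, tnt-2 at 168 ± 75.0 and tni-1 at 95 ± 66.6. Then came tni-3 at 58.8 ± 69.8, tni-4 at 29.9 ± 13.5, tnt-3 at 24.6 ± 7.77, tnc-2 at 20.3 ± 11.7 and tnt-4 at 16.4 ± 13. The step from pat-10 to mup-2 was seen in all 10 libraries. Every lower neighbouring pair overlapped within 1 SD, and tni-3 exceeded tni-4 in 4 of 10 libraries. The level of tnt-3 per kb depends on its 11 annotated transcripts, whose joined exons span 4917 bases.

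The troponin I gene tni-3 (chromosome V, 16833638 to 16835128, minus strand, in the WBcel235 annotation) showed the widest separation of the sexes among the 10 genes. In hermaphrodites it had 14.5, 10.1, 9.50, 6.63 and 6.22 CPM in order of window. In males it had 26.0, 45.1, 111, 188 and 141 CPM. All 5 male values lay above all 5 hermaphrodite values, and the gap widened from 1.79-fold in late L3 to 28.3-fold in the first adult window and 22.8-fold in the second. Such a separation, with all males above all hermaphrodites, was seen in 13.3% of tested genes. Over the 5 windows the log2 ratio was 3.22 ± 0.66 (approximate SE, n = 5 libraries per sex, adjusted p = 0.0266, edgeR's quasi-likelihood test with window as a block). It was the only troponin gene called there, 1 of 10, against 15.3% of all tested genes called higher in males and 3.56% called lower. It was also the only one with the male library higher at all 5 windows, which held for 26.3% of tested genes. The call was lost without the late L4 or the first adult window or any 1 of their 4 libraries. There log2 was 2.62 to 3.12, with adjusted p = 0.0744 to 0.141. Over all genes those fits called 77 to 324, against 3003 with all libraries. tni-3 lies within the span of phy-3, which runs on the other strand and shares no exon base with it. phy-3 had 152 reads in all hermaphrodite libraries and 581 in all male ones, with 2 to 181 per library.

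**Figure D1:**
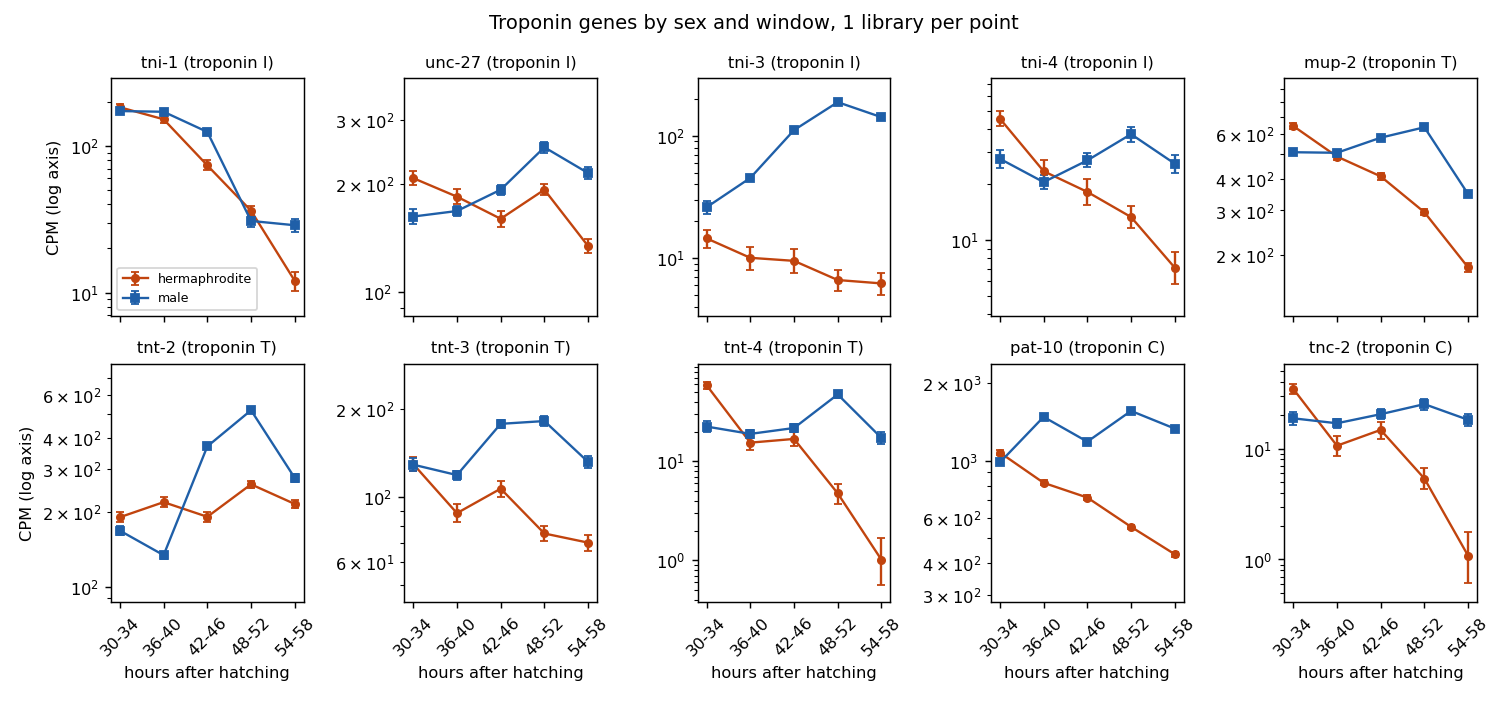
CPM on a log axis (vertical) of each troponin gene against window in hours after hatching (horizontal), with 1 library per point, hermaphrodites as circles and males as squares; bars are 95% Poisson intervals of the read count and cover counting error only. The 5 male values of tni-3 run from 26.0 to 188 CPM above hermaphrodite values of 6.22 to 14.5, while tni-1 falls in both sexes.

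The other troponin I genes of body wall muscle went different ways. tni-1 (chromosome X, 11375887 to 11377470) had 183, 152, 73.6, 36.1 and 12 CPM in hermaphrodites and 173, 171, 124, 30.8 and 28.8 CPM in males. The last value was 15.2-fold below the first in hermaphrodites and 6.00-fold below it in males, and the sexes overlapped. unc-27 (chromosome X, 8789456 to 8790621) had 207, 184, 160, 192 and 134 CPM in hermaphrodites and 162, 168, 192, 252 and 214 CPM in males. Its 10 values thus stayed within 1.88-fold of each other. The pharyngeal tni-4 (chromosome IV, 5204591 to 5207124) had 45.3, 23.6, 18.2, 13.3 and 7.09 CPM in hermaphrodites and 27.5, 20.6, 26.9, 37.3 and 25.9 CPM in males. It crossed from higher in hermaphrodites at the first 2 windows to higher in males at the last 3.

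Shares within a subunit do not depend on the scaling between libraries. Of troponin I reads per kb of exon, tni-3 made up 3.25%, 2.77%, 3.65%, 2.64% and 3.84% in hermaphrodites, in order of window. In males the share was 6.82%, 11.4%, 24.5%, 36.4% and 34.0%. The mean difference, male minus hermaphrodite, was 19.4 ± 13.1 percentage points (SD, n = 5 windows, exact two-sided sign-flip permutation p = 0.0625, the smallest that 5 windows allow), with males higher at 5 of 5 windows. Unpaired, which sets aside that libraries of a window share an age, the exact permutation p was 0.00794. This is the smallest p that the unpaired test allows. It follows from all 5 male shares lying above all 5 hermaphrodite shares. Of the troponin I genes only tni-3 was so tested, with earlier results of these data known. Its CPM values already separated the sexes, so these p-values add no separate support. The share of tni-1 went from 37.7% to 6.81% in hermaphrodites and from 41.5% to 6.35% in males. The share of unc-27 went from 47.3% to 84.3% in hermaphrodites and from 43.3% to 52.4% in males. In both sexes tni-1 was a larger part of troponin I reads in the first larval window than in the second adult window. unc-27 was the largest part at each window in both sexes. In males its share was 43.3%, 43.1% and 43.3% up to late L4, while that of tni-3 rose.

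**Figure D2:**
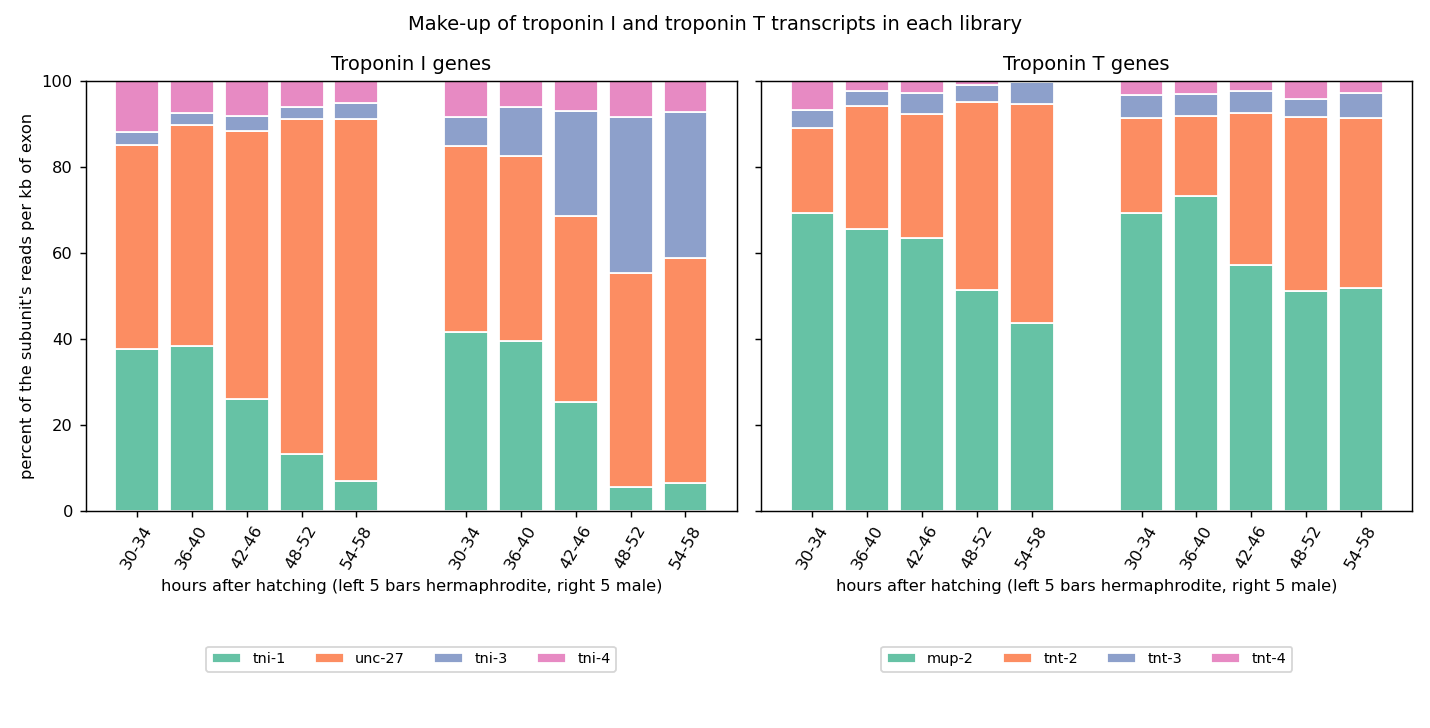
Percent of reads per kb of exon (vertical) held by each troponin I gene (left panel) and troponin T gene (right panel) in each library, by window in hours after hatching (horizontal), with the left 5 bars hermaphrodite and the right 5 male. tni-3 holds 34.0% of troponin I reads in the last male library and 3.84% in the last hermaphrodite library.

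Among the troponin T genes, mup-2 (chromosome X, 6408471 to 6410227) had 644, 489, 409, 295 and 179 CPM in hermaphrodites and 508, 506, 580, 637 and 348 CPM in males. Its share of troponin T reads per kb went from 69.2% to 43.7% in hermaphrodites and from 69.2% to 51.7% in males. tnt-2 (chromosome X, 8721546 to 8723550) had 191, 220, 192, 260 and 216 CPM in hermaphrodites and 169, 134, 370, 518 and 276 CPM in males. Its share went from 19.9% to 51.0% in hermaphrodites and from 22.3% to 39.7% in males, so it gained on mup-2 in both sexes. tnt-3 (chromosome X, 7937633 to 7945099) had 130, 88.2, 107, 75.1 and 69.9 CPM in hermaphrodites and 129, 119, 178, 182 and 132 CPM in males, with the highest hermaphrodite value above the lowest male value. The pharyngeal tnt-4 (chromosome V, 1989471 to 1992918) had 58.7, 15.4, 16.8, 4.75 and 1.0 CPM in hermaphrodites and 22.4, 18.9, 21.7, 47.4 and 17.2 CPM in males. The last hermaphrodite value rests on 15 reads (95% exact Poisson interval 0.567 to 1.67 CPM, counting error only) and lies 58.0-fold below the first.

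Of the 2 troponin C genes, pat-10 (chromosome I, 5018783 to 5020358) had 1075, 820, 718, 552 and 432 CPM in hermaphrodites and 984, 1481, 1186, 1563 and 1333 CPM in males. It held 96.3% to 99.7% of troponin C reads per kb in all 10 libraries. The pharyngeal tnc-2 (chromosome II, 10466852 to 10468358) had 34.6, 10.6, 14.8, 5.38 and 1.08 CPM in hermaphrodites and 18.8, 16.9, 20.5, 25.2 and 18.2 CPM in males. Its last hermaphrodite value rests on 16 reads. tnc-2 shares 157 exon bases with clec-143 on the opposite strand and tni-4 shares 16 with Y59E9AL.36, so without a stated strand setting reads there cannot be assigned with certainty. clec-143 had at most 21 reads in any library and Y59E9AL.36 had 174 to 860.

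Over the 10 libraries the Pearson correlation of log2(CPM + 1) was 0.979 between tnt-4 and tnc-2, 0.978 between tni-4 and tnt-4 and 0.956 between tni-4 and tnc-2, as a description of libraries that share age and sex. Together they held 6.26%, 3.04%, 3.58%, 2.14% and 1.20% of all troponin reads per kb in hermaphrodites and 3.77%, 2.46%, 3.06%, 3.67% and 2.91% in males. The mean difference was -0.0676 ± 1.73 percentage points (SD, n = 5 windows), with males lower at the first 3 windows and higher at the last 2. The body wall gene mup-2 had correlations about as high with them, 0.923 with tni-4, 0.924 with tnc-2 and 0.950 with tnt-4. For tni-1 the correlation was 0.00636 with tni-3 and -0.444 with tnt-2.

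The next comparison set the sexes against each other at each window, where each sex had a single library, so that values are given without a test. In late L3 the log2 ratio on CPM + 1 was above 0 for 1 of the 10 troponin genes (tni-3). The number was 7 in early L4, 10 in late L4, 9 in the first adult window, where tni-1 was the exception, and 10 in the second. The median of the 10 genes went from -0.26 through 0.22, 0.63 and 1.34 to 1.41, while the median of all tested genes was 0.09 to 0.23. As that all-gene median was above 0 at each window, most tested genes were above 0 too. In early L4 it was 0.23, just above the 0.22 of the troponin genes. No troponin gene was at least 4-fold apart (on CPM + 1, and reaching 5 CPM in 1 sex) in late L3, against 6.48% of tested genes so much higher in males and 0.226% in hermaphrodites. Only tni-3 was so in early L4 (5.02% and 0.553% of tested genes) and in late L4 (9.52% and 1.7%). It was joined by tnt-4 and tnc-2 in the first adult window (15% and 4.93%) and the second (16.6% and 7.11%), always with males higher. On CPM + 1 the log2 ratios at these windows were 3.07 and 3.18 for tnt-4 and 2.04 and 3.21 for tnc-2. On CPM without the added 1, tnt-4 was 9.97-fold and 17.0-fold higher in males, and tnc-2 was 4.69-fold and 16.8-fold higher. In the second adult window the hermaphrodite values rest on 15 reads of tnt-4 and 16 of tnc-2.

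**Figure D3:**
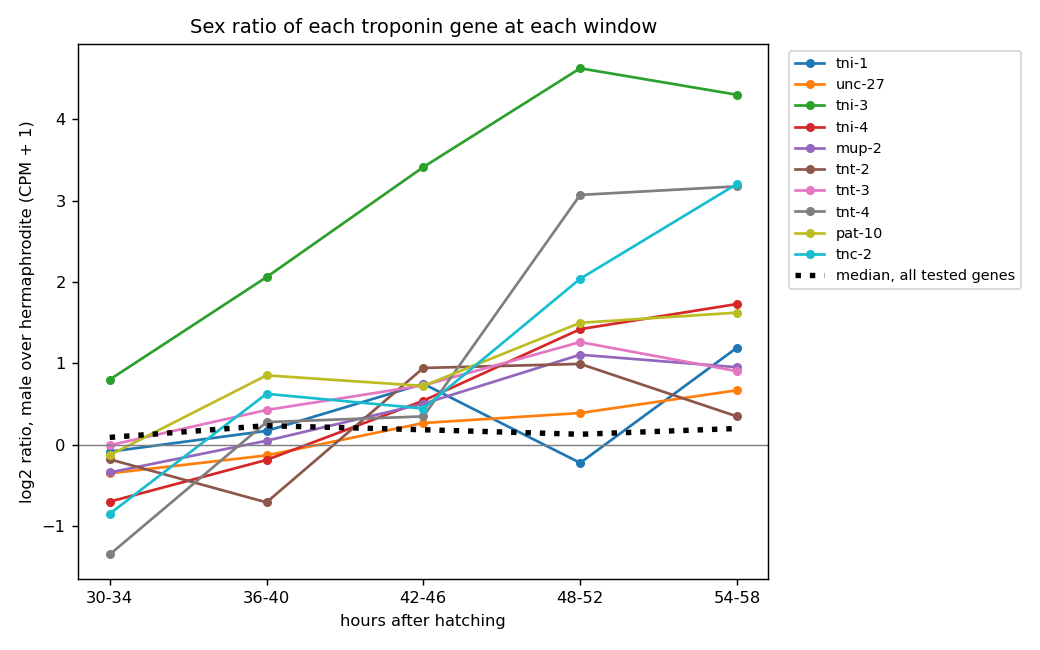
Log2 ratio of male over hermaphrodite CPM + 1 (vertical) of each troponin gene at each window in hours after hatching (horizontal), 1 library per sex and point, with the median of all tested genes as a dotted line. The ratio of tni-3 runs from 0.80 to 4.63, and tnt-4 and tnc-2 pass from below 0 in the first window to above 3 in the last.

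In young adults, 6 of the 10 troponin genes were called, each with males higher (edgeR's quasi-likelihood test, n = 2 libraries per sex), against 62.3% of all tested genes called, 32.9% higher and 29.5% lower. They were tni-3 (log2 4.68 ± 0.24, adjusted p = 0.000564), tnt-4 (3.46 ± 0.84, adjusted p = 0.0165), tnc-2 (2.73 ± 0.72, adjusted p = 0.022), tni-4 (1.63 ± 0.39, adjusted p = 0.0162), pat-10 (1.56 ± 0.19, adjusted p = 0.0021) and tnt-3 (1.12 ± 0.21, adjusted p = 0.00742). All 3 pharyngeal genes and both troponin C genes were thus among them. Not called were mup-2 (1.05 ± 0.37, adjusted p = 0.0547), tnt-2 (0.74 ± 0.31), unc-27 (0.52 ± 0.24) and tni-1 (0.31 ± 0.53). Both male values lay above both hermaphrodite values for 9 of the 10 genes, against 45.6% of tested genes, tni-1 being the exception. With window as a block mup-2 was called too (adjusted p = 0.0121). With any 1 library left out, 1 library remains in that sex, so sizes alone are given. Some troponin calls were lost and others gained in these fits, while fewer genes were called over all genes. Without the male library of the first adult window log2 was 1.38 for tni-4, 2.60 for tnt-4 and 2.52 for tnc-2. Without that of the second it was 1.89, 4.04 and 2.97, with 1.44 for mup-2 and 1.14 for tnt-2. Without the hermaphrodite library of the first adult window it was 1.48 for mup-2, 1.34 for tni-1 and 0.83 for unc-27. Without that of the second, tni-1 turned to -0.25. The sizes for tnt-4 and tnc-2 were 5.0 and 4.35 without the first of these hermaphrodite libraries and 2.78 and 2.04 without the second.

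With age, 6 of the 10 genes fell in hermaphrodites and none rose, against 16.9% of tested genes called falling and 20.9% rising, 37.8% in all (edgeR's quasi-likelihood test of a linear slope, n = 5 libraries per sex). The slopes per 6 h step were steepest for the pharyngeal tnt-4 (log2 -1.31 ± 0.22, adjusted p = 0.0031) and tnc-2 (-1.05 ± 0.20, adjusted p = 0.00452). Over all genes 3332 rose and 2684 fell, and with library size as the only scaling 2583 and 3243. Among the troponin genes tni-1 followed with -0.995 ± 0.16, tni-4 with -0.62 ± 0.10, mup-2 with -0.44 ± 0.09 and pat-10 with -0.32 ± 0.07. Not called were tni-3 (-0.30 ± 0.12, adjusted p = 0.0691), tnt-3 (-0.20 ± 0.08), unc-27 (-0.12 ± 0.06) and tnt-2 (0.06 ± 0.14). Without the second adult window 1 of these calls was left, that of tnt-4. Without the hermaphrodite library of that window alone the calls of mup-2 and pat-10 were lost. Over all genes these fits called 1962 and 2623, against 6016 with all libraries.

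In males none of the 10 slopes was called by edgeR, where 0.59% of tested genes were called, 0.276% rising and 0.314% falling. At an unadjusted p under 0.05 there were 3, a level at which the share over all genes was not counted. DESeq2 and limma-voom each called 2, against 2007 and 931 of all 15924 tested genes. These 2 were tni-3, with a slope of 0.72 ± 0.13 in edgeR (adjusted p = 0.0572), and tni-1, with -0.77 ± 0.16 (adjusted p = 0.0738). The call of tni-3 was gained in edgeR with RLE factors (adjusted p = 0.0491), without a filter on low counts (0.0468), without the late L3 hermaphrodite library (0.048, and 0.0477 for tni-1) and without the last male library (0.0343). The remaining 8 slopes ran from -0.06 ± 0.09 (mup-2) to 0.37 ± 0.15 (tnt-2).

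**Figure D4:**
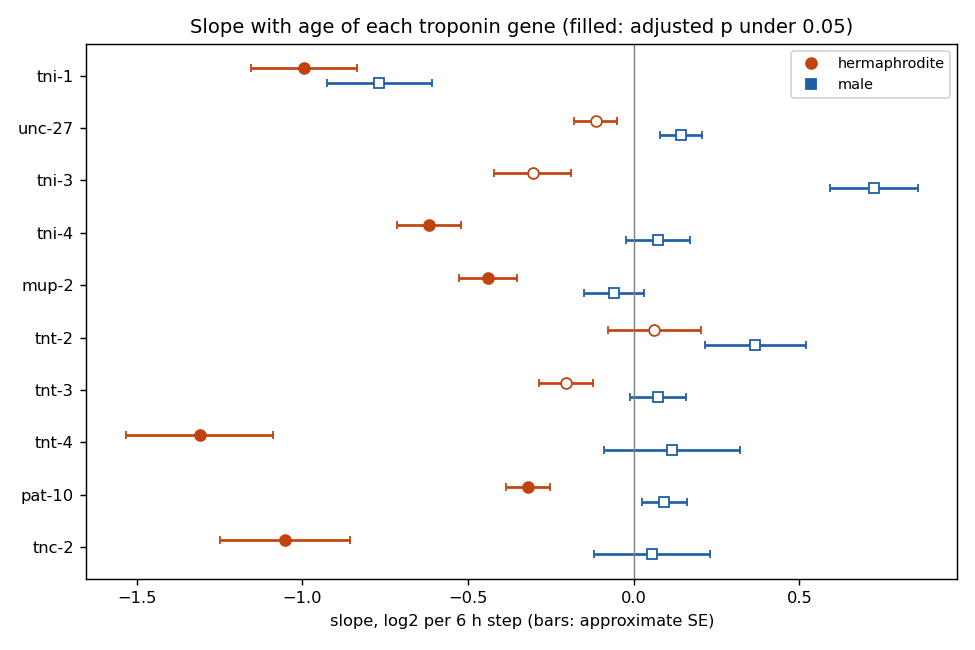
Slope of each troponin gene in log2 per 6 h step (horizontal) in hermaphrodites (circles) and males (squares), with approximate standard errors as bars; filled symbols have an adjusted p under 0.05. The 6 called slopes are all of hermaphrodites, from -1.31 for tnt-4 to -0.32 for pat-10, and the male slope of tni-3 is 0.72.

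Tested directly, the slope was higher in males than in hermaphrodites for 6 of the 10 genes and lower for none, against 5.6% and 10.2% of tested genes, 15.8% in all (edgeR, interaction with window as a block, n = 5 libraries per sex). The differences in log2 per 6 h step were 1.39 ± 0.20 for tnt-4 (adjusted p = 0.0239), 1.13 ± 0.20 for tnc-2, 1.00 ± 0.16 for tni-3 (adjusted p = 0.0256), 0.69 ± 0.11 for tni-4, 0.42 ± 0.09 for pat-10 and 0.37 ± 0.08 for mup-2 (adjusted p = 0.0371, and 0.0684 without the block). The difference was 0.23 ± 0.15 for tni-1 (adjusted p = 0.294), whose level went down in both sexes. Over all genes 892 male slopes were higher and 1627 lower, and with library size as the only scaling 778 and 630. This test has 3 residual degrees of freedom. None of the 6 calls was left without any 1 of the 4 later windows or any 1 of their 8 libraries. Adjusted p values there ran from 0.0505 to 0.187 for these genes. Over all genes those fits called 0 to 3, against 2519 with all libraries, so the loss was not particular to the troponin genes. Without the late L3 window 4 of the 6 calls were left, mup-2 and pat-10 being lost.

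Germline RNA is a growing part of a maturing hermaphrodite. In whole-animal RNA a smaller part of muscle in the total and less troponin RNA per muscle cell cannot be told apart. The summed level of 9 oocyte and germline markers went from 255 to 12611 CPM in hermaphrodites, while males went from 238 to 636 CPM. All 9 were called rising in hermaphrodites (edgeR slope test), against 20.9% of all tested genes. No marker was at 0 in any library, and their part in the fall of the troponin genes was not tested. The summed level of 6 body wall muscle markers went from 9071 to 3286 CPM in hermaphrodites and was 8344 to 13455 CPM in males. In hermaphrodites 4 of the 6 were called falling, against 16.9% of all tested genes. The body wall myosin heavy chain genes unc-54 and myo-3 together went from 4545 to 1807 CPM in hermaphrodites, while the 5 male libraries held 4198 to 6318 CPM. Relative to these 2 myosin genes, the log2 ratio of the summed 7 body wall troponin genes stayed between -1.10 and -0.68 in all 10 libraries, and the sexes overlapped. In the first hermaphrodite library pat-10 and mup-2 gave 1075 and 644 of the 2445.5 CPM in this sum. Single genes in it moved otherwise, as in hermaphrodites tni-1 went from 183 to 12.0 CPM and tnt-2 from 191 to 216 CPM. The log2 ratio of tni-3 alone to the 2 myosin genes was -8.84 to -8.18 in hermaphrodites. In males it went from -7.46 to -5.14, with no overlap between the sexes.

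The pharyngeal myosin genes myo-1 and myo-2 together went from 712 to 31.1 CPM in hermaphrodites, while the 5 male libraries had 306 to 697 CPM. The log2 ratio of the 3 pharyngeal troponin genes to them, in order of window, was -2.36, -2.40, -2.01, -2.07 and -1.76 in hermaphrodites and -2.64, -2.44, -2.33, -2.66 and -2.49 in males, nearly level in early L4 and lower in males at the other windows, with 1 library per value. Of 4 pharyngeal muscle markers, the summed level went from 789 down to 43.0 CPM in hermaphrodites, while the 5 male libraries spanned 331 to 795 CPM, and the homeobox gene ceh-22 was at 0 in the last hermaphrodite library. For the sex muscles, which arise during these stages, the summed level of 3 markers was 8.38 to 54.1 CPM in hermaphrodites, against 30.6 to 101 CPM in males. In males it was lower in both adult windows than in the larval windows. Nearly all of it was egl-15, a growth factor receptor gene, at 30.4 to 96.2 CPM in males, against 8.18 to 52.1 CPM in hermaphrodites. Of these, arg-1 was at 0 in 6 of 10 libraries and hlh-8, which marks their precursors, in 1, and their part in the level of tni-3 was not tested. Among markers of other tissues in young adults, 6 of 6 sperm genes were higher in males, 9 of 9 oocyte and germline genes lower, 1 of 5 intestinal genes higher and 1 lower, and 1 of 4 hypodermal genes higher and 1 lower (edgeR). All tested genes had 32.9% higher and 29.5% lower, and the markers' part in the troponin values was not tested.

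**Figure D5:**
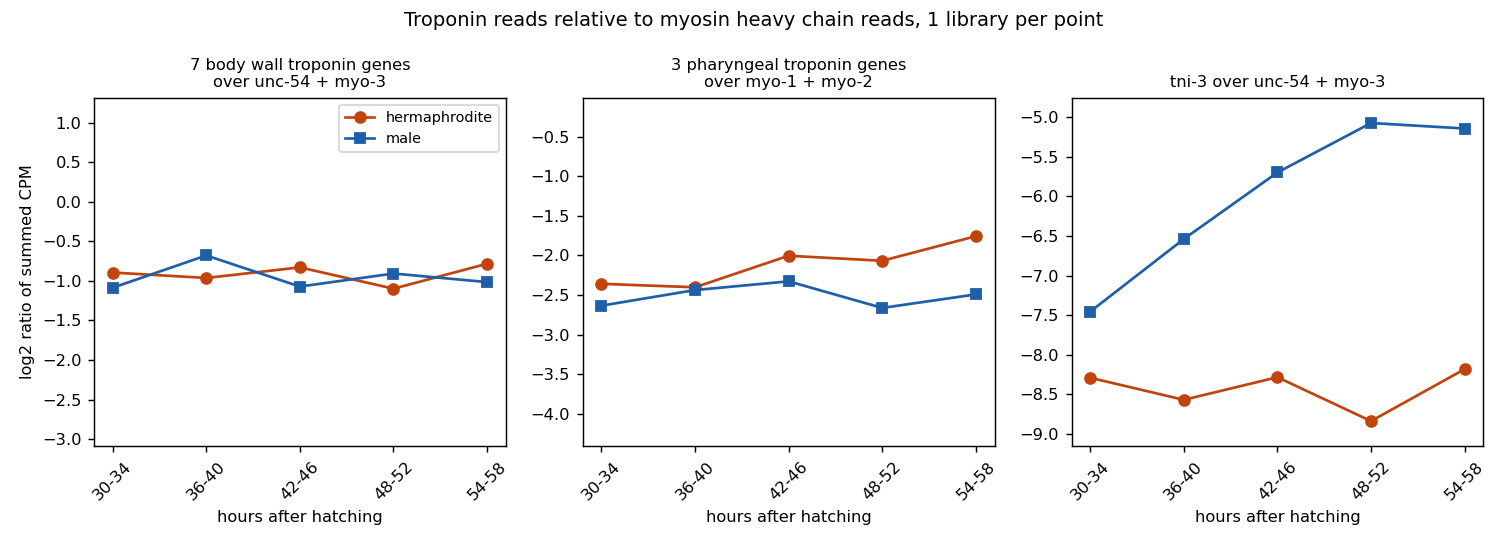
Log2 ratio of summed CPM (vertical, the same span in each panel) of the body wall troponin genes to unc-54 plus myo-3 (left), the pharyngeal troponin genes to myo-1 plus myo-2 (middle) and tni-3 to unc-54 plus myo-3 (right), by window in hours after hatching (horizontal), 1 library per point. The left ratio stays between -1.10 and -0.68, and tni-3 reaches -5.07 in males against at most -8.18 in hermaphrodites.

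Of the 10 genes, 5 are on the X chromosome (tni-1, unc-27, mup-2, tnt-2 and tnt-3) and 5 on autosomes. Over the course the log2 sex ratio ran from 0.17 to 0.67 for the X-linked and from 0.60 to 3.22 for the autosomal troponin genes, against medians of 0.37 and 0.17 for all tested X-linked and autosomal genes. In young adults 5 of 5 autosomal troponin genes were called and 1 of 5 on the X (tnt-3), with 33.4% and 29.4% of tested autosomal and X-linked genes called higher in males. The autosomal set includes all 3 pharyngeal genes and both troponin C genes.

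Other parts of the contractile apparatus were read beside the troponins from lists of muscle genes. The thick filament list shares unc-54, myo-3, unc-15, unc-89 and unc-22 with the body wall markers and myo-1 and myo-2 with the pharyngeal ones. In young adults 10 of 12 thick filament genes had higher levels in males and 1 had a lower level (edgeR, n = 2 per sex), against 32.9% and 29.5% of all tested genes. They were led by the pharyngeal myosins myo-1 (log2 3.14 ± 0.62) and myo-2 (2.77 ± 0.69) and the titin-like ttn-1 (2.27 ± 0.38). Their median was 1.60, against 1.34 for the 10 troponin genes and 0.34 for all tested genes. Of 8 genes of calcium handling, which deliver the signal that troponin reads, 7 were higher and none lower, with a median of 1.98. They included the calcium channel genes unc-36 (2.91 ± 0.35), cca-1 (2.32 ± 0.27) and egl-19 (2.16 ± 0.26). Of 14 thin filament partners, 4 were higher and 4 lower, near the share over all tested genes, with a median of 0.44. The tropomodulin-related tmd-2 (1.73 ± 0.31), the kettin gene ketn-1 (1.65 ± 0.34) and the calponin-like clik-1 (1.54 ± 0.21) were the called ones with the largest changes. Of 12 attachment genes, 6 were higher and 1 lower, with the integrin gene pat-2 at 1.57 ± 0.31.

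Over the whole course the calcium handling list had 4 of 8 genes called higher in males, against 15.3% of all tested genes, namely unc-36 (log2 1.81 ± 0.48), egl-19 (1.53 ± 0.33) and the ryanodine receptor gene unc-68 (1.38 ± 0.31) with the largest changes and 1 more. None of the 12 thick filament, 14 thin filament or 12 attachment genes was called there in edgeR. At an unadjusted p under 0.05 there were 8, 4 and 6, a level at which the share over all genes was not counted. DESeq2 called 6, 1 and 1, against 5920 of all 15924 tested genes. For limma-voom the numbers were 8, 3 and 3, against 5258 of all tested genes. In hermaphrodites 8 of 8 calcium handling, 10 of 12 thick filament, 8 of 12 attachment and 4 of 14 thin filament genes fell with age, against 16.9% of all tested genes falling and 20.9% rising, and 1 thin filament gene, the actin gene act-2, rose (0.48 ± 0.09 per step).

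The genes whose log2(CPM + 1) followed tni-3 most closely over the 10 libraries, among the 10807 genes averaging 5 CPM or more, were nhr-62 (Pearson r = 0.99), exc-9 (0.987), clec-221 (0.987), C05C10.8 (0.985) and C25F9.8 (0.985). These are descriptions of 10 libraries that differ in sex and age together. For nhr-62, a nuclear hormone receptor gene, hermaphrodites had 1.81 to 4.28 CPM and males 5.13 to 15.9 CPM. exc-9, which encodes a LIM domain protein, had 1.55 to 3.13 and 7.48 to 18.0 CPM. clec-221, a C-type lectin gene, had 0.813 to 4.59 and 8.44 to 275 CPM. The unnamed C05C10.8 and C25F9.8 had at most 0.313 and 0.104 CPM in hermaphrodites and up to 69.4 and 21.2 CPM in males, so they were read almost only in males, whereas tni-3 was read in every hermaphrodite library with at least 83 reads.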

How the data were processed

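The authors deposited raw read counts per gene for 10 libraries. The submitters' processing notes name HTSeq and CASAVA 1.8. No aligner, genome build or strand setting is given in the sources used here. Totals that name no gene were left out. As shares of all reads these were 2.18% to 3.98% on no feature, 0.32% to 0.75% ambiguous, 3.31% to 25.38% not aligned, 11.23% to 17.83% aligned to several places and 0.0% of low quality. Of 46589 sequence names, 46180 matched a gene in the Ensembl WBcel235 annotation and 409 did not. Positions come from that annotation and count from 1, and lengths are of joined exons.

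Genes reaching 1 CPM in 2 or more libraries entered edgeR 4.0.16 (R 4.3.3), TMM scaling and Benjamini-Hochberg adjustment over all of them, at a threshold of 0.05. In the young adult fit, of 4 libraries, 15849 genes had reads. An error after ± on a log2 value is approximate and equals its size over the root of F. The code was tested on simulated data. DESeq2 1.42.0, limma 3.58.1 (voom), other scalings, filters and left-out libraries were alternatives. The window served as the block because the number in each title is the window. Libraries of the same window deviated together from their sex's mean (r = 0.248 to 0.467 over genes). Intervals and depth cover counting error only. The members, the muscle and marker lists and the rule for naming genes (all 10 members, up to 3 called genes per list by size, and the 5 genes most like tni-3) were chosen with earlier results of these data known. Library size alone at single windows was added after the values were seen.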

Additional observations from a re-analysis of the deposited data

Results flagged for a closer look

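The male library of the first adult window had 47.4 CPM of tnt-4, far from the other 4 male libraries (17.2 to 22.4 CPM), by a test of the gap against the range of a group of 5. Of 24 such groups examined this was the 1 set apart, and chance sets apart about 1 in 20. The libraries of a group differ in age.

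The slope with age was called different between the sexes for 6 genes by the test of the difference itself. Over all tested genes 15.8% were called, 5.6% with the male slope higher and 10.2% with it lower. None of the 6 calls was left without any single window after the first, or without any single library of those windows. Over all genes those fits called 0 to 3, so the loss was not particular to the troponin genes. The male slope was higher, in log2 per 6 h step, by 0.37 for mup-2, 0.42 for pat-10, 1.13 for tnc-2, 1.00 for tni-3, 0.69 for tni-4 and 1.39 for tnt-4.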

How the results depend on the processing

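Of the 10 troponin genes, the number called in the sex difference over 5 windows was 1, and 2 with DESeq2, without a filter or without the replicate block, 3 with limma-voom, and 0 to 2 with windows or libraries left out. The further calls were of pat-10 (adjusted p = 0.0194 to 0.0481) and, with limma-voom, of tnt-3. In young adults 6 were called (7 with the block, 9 with library size only or a stricter filter). Fits with a young adult library left out leave 1 in that sex, so their calls, some lost and some gained, are not counted. For slopes in hermaphrodites 6 were called (9 with library size only or a stricter filter), and 1 to 7 with windows or libraries left out. For slopes in males 0 were called, 1 with RLE factors or no filter, 2 with DESeq2 or limma-voom, and 0 to 2 with windows or libraries left out. For the slope difference 6 were called (5 without the replicate block), and 0 to 4 with windows or libraries left out. With library size only, the genes at least 4-fold apart numbered 0 in place of 1 in early L4 and 5 in place of 3 in the second adult window, an alternative chosen after seeing the data. The share difference of tni-3 was 19.4 points, and 15.8 to 23.4 without single windows. The exact permutation test without the block gave p = 0.00794, the smallest that it allows. That of the pharyngeal genes, -0.0676, was 0.00225 on raw reads and -0.512 to 0.536 without single windows. The direction of values not called as reported turned in some alternatives. These were the slope of tnt-2 in hermaphrodites (-0.027 with library size only) and of mup-2 in males (0.000482 with RLE factors, 0.000497 with DESeq2). With windows or libraries left out, the sex difference spanned -0.0092 to 0.52 for tni-1, -0.12 to 0.30 for unc-27 and -0.058 to 0.53 for tnt-2. The young adult value of tni-1 spanned -0.25 to 1.34 (1.34 without the first adult hermaphrodite library). The male slopes spanned -0.14 to 0.12 for mup-2, -0.066 to 0.35 for tnt-4 and -0.0069 to 0.17 for pat-10, and the slope difference of tni-1 -0.017 to 0.42. The cause was not tested, apart from the fewer libraries of the left-out fits. No direction of tni-3 turned in these alternatives. Over all genes the sex difference had 3003 calls, 5920 with DESeq2, 5258 with limma-voom and 1350 with a stricter filter. Male slopes had 94, 2007, 931 and 61. The slope difference had 2519, 5685 with DESeq2, 3973 with limma-voom, 1408 with library size only and 1666 without a filter. Depth limits tnt-4 and tnc-2 in the last hermaphrodite library, with 15 and 16 reads.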
